A study of Mus musculus with 3 samples.

Results

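Cluster 23 was a group of cells in single-cell RNA sequencing of the mouse iridocorneal angle and limbus, the rim of the anterior eye where aqueous humor drains. It was examined here under the label of dendritic cells. That label was not the paper's, which named clusters 23 to 25 as monocytes. Its members were all cells that the authors kept after quality control and placed in cluster 23, which came to 298 of 26008 kept cells. Of these, 70 came from control library 1, 142 from control library 2 and 86 from the *Angpt1*ΔNC library. Both controls were Angpt1 flox/flox mice without Cre. The *Angpt1*ΔNC mice were Angpt1 flox/flox;Wnt1Cre+, in which Wnt1Cre deletes the floxed gene in the neural crest lineage. All animals were 6 weeks old, of mixed strain and crossed for 2 generations to albino ICR mice, and each library was 1 pool of 2–3 mice (4–6 eyes), so that there was a single *Angpt1*ΔNC pool. The p-values of the genotype test within cluster 23 therefore measure only the spread between 2 control pools, and the *Angpt1*ΔNC pool was assumed to vary like them.

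Dendritic cells take up antigen in peripheral tissue, load its peptides on MHC class II molecules and carry them to lymph nodes, where they present them to T cells. Conventional dendritic cells are divided into cDC1, which cross-present antigen to CD8+ T cells, and cDC2, which mainly present to CD4+ T cells. Both mature into a migratory state that depends on the chemokine receptor CCR7. At the limbus they lie among macrophages and monocytes, which share many transcripts with them.

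The 3 libraries held 76981606, 80346829 and 66484181 UMIs (unique molecular identifiers, each counting 1 captured transcript) in their kept cells. Deletion was visible in the libraries: *Angpt1* was detected in 17.2% and 17.3% of kept control cells but in 0.340% of kept *Angpt1*ΔNC cells. The study pooled males and females, but the control libraries held almost no *Xist*. *Xist*, the RNA of the inactive X chromosome, was found in 3 of 9076 and 2 of 10160 kept control cells but in 3975 of 6772 kept *Angpt1*ΔNC cells. In cluster 23 it was found in 0 of 70 and 0 of 142 control cells, which allows a share of up to 4.29% and 2.11%, and in 47 of 86 *Angpt1*ΔNC cells. Y-linked transcripts without *Xist* were found in 38, 90 and 23 cells of control 1, control 2 and *Angpt1*ΔNC, so that the *Angpt1*ΔNC pool held cells of both kinds. Sex and genotype thus cannot be told apart in a comparison of the whole pools, and values for cells with a Y-linked transcript are given for some of the genes below. No barcode of cluster 23 was shared between libraries, against 13 to 25 barcodes shared between each pair over all kept cells.

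Cells of cluster 23 held a median of 6439, 5877 and 7820.5 UMIs and of 1728.5, 1741.5 and 1802.5 genes in control 1, control 2 and *Angpt1*ΔNC. They made up 0.771% (exact 95% interval 0.602–0.973), 1.40% (1.18–1.65) and 1.27% (1.02–1.57) of kept cells. The *Angpt1*ΔNC share lay between the controls, and was 1.17 times their mean. The intervals of the 2 controls did not overlap, and the ratio was 1.65 against control 1 alone and 0.909 against control 2 alone. Among the cells of the 4 immune clusters, 22 to 25, cluster 23 accounted for 9.59%, 14.0% and 13.2%. No test was made, since 2 libraries against 1 allow no exact permutation p below 1 in 3, and all intervals here cover counting error only.

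Each of the markers behind the dendritic label used here was detected in part of the cluster's cells only. *H2-Ab1*, a beta chain of MHC class II, had a UMI in 71.4%, 60.6% and 80.2% of cells of control 1, control 2 and *Angpt1*ΔNC. *H2-Eb1*, the beta chain of the other class II molecule, had one in 70.0%, 67.6% and 80.2%. *Napsa*, the aspartic protease napsin A, was the most widespread of the 4, in 82.9%, 71.8% and 89.5%. *Ccr7*, the receptor that guides mature dendritic cells to lymph nodes, was in 34.3%, 16.9% and 50%. Epithelial cells of the limbus and cornea (clusters 4 and 5) served as background, with median depths of 15135 to 17717 UMIs, and there the shares did not pass 6.92% for *H2-Ab1*, 2.96% for *H2-Eb1*, 0.506% for *Napsa* and 0.303% for *Ccr7*. Control 2 had the lowest share for all 4 markers.

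MHC class II transcripts divided the cells into those with many and those with none. The sum of *H2-Ab1* and *H2-Aa*, the paired beta and alpha chains of one class II molecule, was 0 in 87 of 298 cells, above 0 but under 50 UMIs per 10,000 of the cell in 25, and at least 50 in 186 (62.4%). The cells with at least 50 were 70.0% (49 of 70) of control 1, 50.7% (72 of 142) of control 2 and 75.6% (65 of 86) of *Angpt1*ΔNC. Within them the median was 257, 243 and 250 UMIs per 10,000, a narrow range beside that of the shares.

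Sub-clustering the 298 cells gave 7 groups, and 3 of these held leading genes of dendritic cells. Names are given as "-like", after leading genes found in marker lists, and rest on names rebuilt here. The genes that define a sub-cluster are described and not tested. cDC2-like cells (69) led with *Cd209a* and *Mgl2*, 2 C-type lectins. *Cd209a* averaged 4.00 UMIs per 10,000 there against 0.265 in the other cells of the cluster, and *Mgl2* 11.3 against 1.87. Mature dendritic-like cells (35) led with *Tbc1d4*, the amino acid oxidase *Il4i1*, the chemokines *Ccl22* and *Ccl17*, and *Ccr7*. Every one of the 35 had a *Ccr7* UMI (20.8 per 10,000 against 2.90 elsewhere), and *Ccl17* averaged 15.3 against 1.19. cDC1-like cells (34) led with *Xcr1*, the receptor through which cDC1 answer the chemokine XCL1, in 55.9% of them (2.37 per 10,000 against 0.0419), together with the lectin *Cd207*, the integrin subunit *Itgae* and the adhesion molecule *Cadm1*.

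The other 160 cells, in 4 sub-clusters, led with genes of other myeloid cells. One monocyte-like group (52 cells) had *Vcan*, *Chil3*, *Fn1* and *Ly6c2*, genes of classical Ly6C-high monocytes. *Vcan*, the matrix proteoglycan versican, averaged 3.88 UMIs per 10,000 there against 0.0619 in the rest of the cluster. A second one (36 cells) had *Ace*, *Treml4*, *Cd300e* and *Cx3cr1*, genes of non-classical patrolling monocytes, with *Ace* at 6.53 against 0.204. Macrophage-like cells (44) had the complement genes *C1qa*, *C1qb* and *C1qc*, with *C1qa* at 17.6 against 0.305. Granulocyte-like cells (28) had *S100a8*, *S100a9*, *Retnlg* and *Cxcr2*. *S100a9*, an abundant neutrophil calcium-binding protein, averaged 389 against 0.0300. These 28 cells were shallow, with a median of 1421.5 UMIs.

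**Figure D1:**
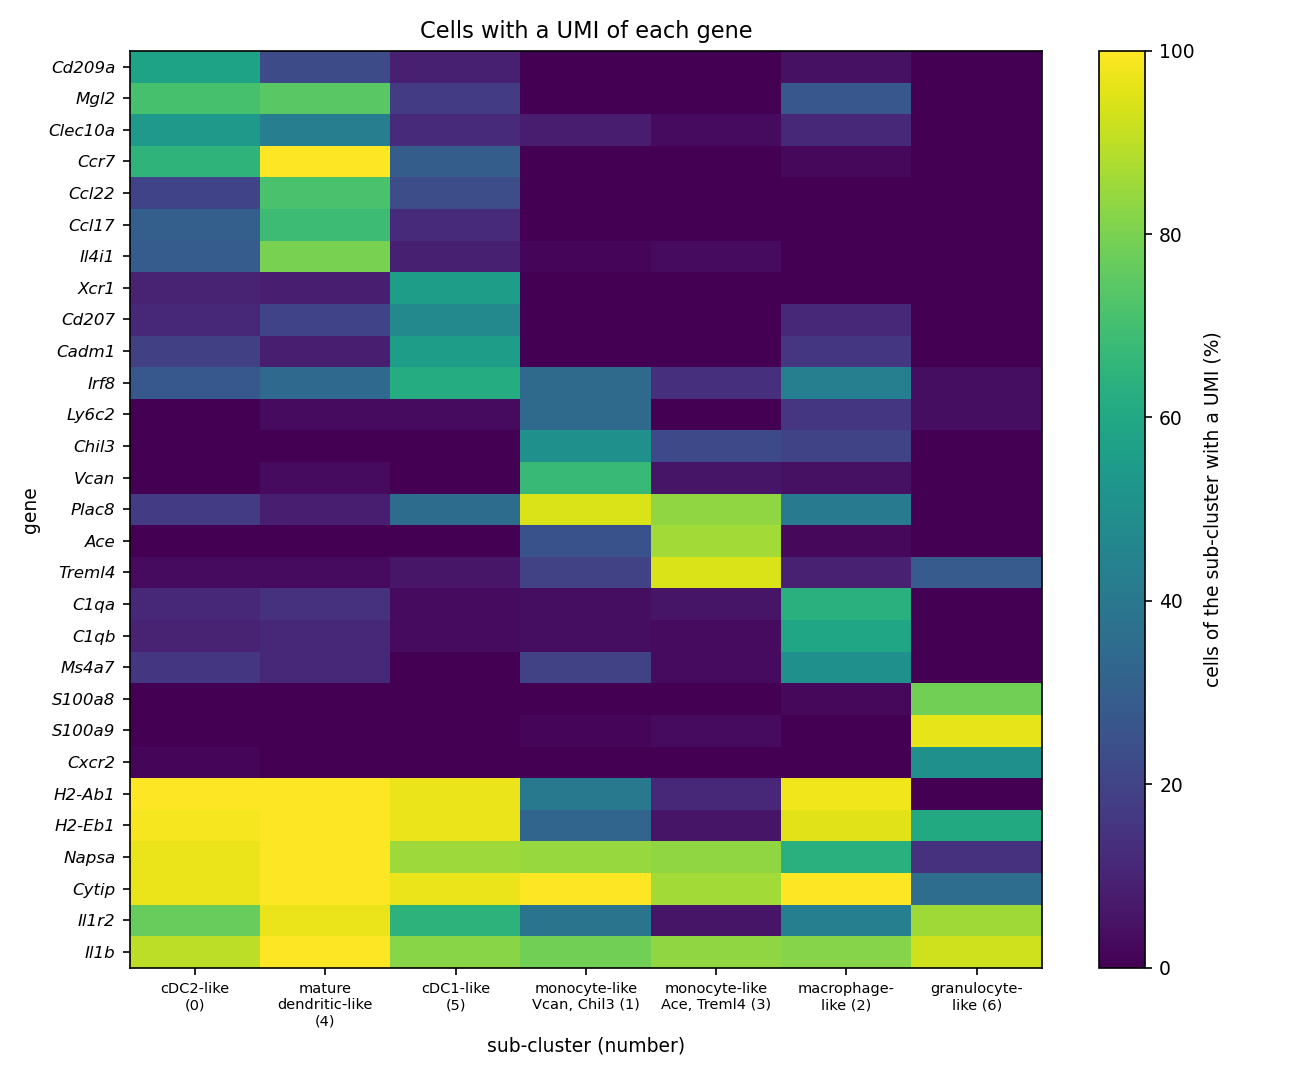
Share of cells with at least 1 UMI (colour, 0 to 100%) for selected genes (rows) in the 7 sub-clusters of cluster 23 (columns), all 3 libraries together. *Cd209a*, *Ccr7* and *Xcr1* mark the first 3 columns, while *Vcan*, *Ace*, *C1qa* and *S100a9* mark the other 4, and *Cytip* is frequent in all but the granulocyte-like cells.

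So 138 of the 298 cells (46.3%, 40.5–52.2) were in dendritic-like sub-clusters, 88 (29.5%) were monocyte-like, 44 (14.8%) macrophage-like and 28 (9.40%) granulocyte-like. The dendritic label used here thus went against the leading genes of the remaining 160 cells, and the group is called cluster 23 in what follows. Class II transcripts followed the sub-clusters. *H2-Ab1* was detected in 97.1% to 100% of the cells of the 3 dendritic-like groups and in 97.7% of macrophage-like cells. It was in 40.4% of the *Vcan* monocyte-like cells, in 11.1% of the *Ace* monocyte-like cells and in 0 of 28 granulocyte-like cells, which allows a share of up to 10.7%. *Flt3*, the growth factor receptor of the dendritic lineage, was in 52.9% of cDC1-like, 37.1% of mature dendritic-like and 20.3% of cDC2-like cells, in 1.92% of *Vcan* monocyte-like cells, and was not detected in the other 3 groups of 28 to 44 cells. *Zbtb46*, a transcription factor of conventional dendritic cells, was in 14.7% to 20% of the dendritic-like groups and in at most 2.78% of the others.

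**Figure D2:**
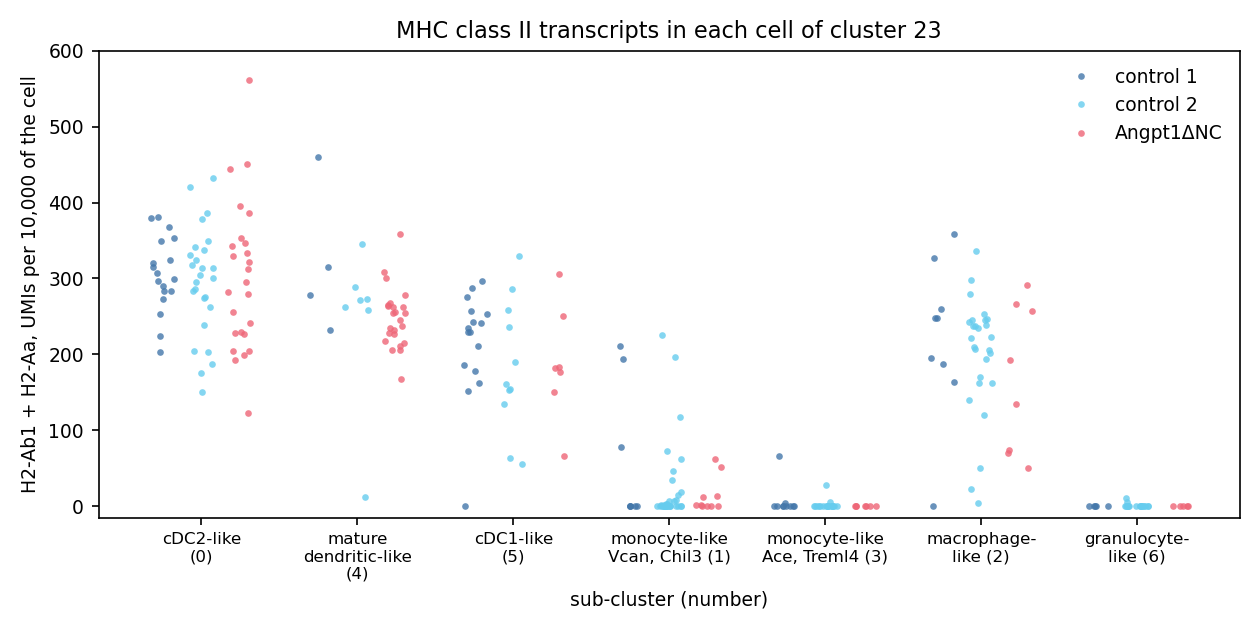
Sum of *H2-Ab1* and *H2-Aa* UMIs per 10,000 UMIs of the cell (vertical axis, linear) for each of the 298 cells of cluster 23, 1 point per cell, by sub-cluster (horizontal axis) and library (colour). Most points of the dendritic-like and macrophage-like groups lie above 50, and most of the monocyte-like and granulocyte-like ones lie at or near 0.

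Cells beyond the dendritic-like groups shared some genes with them. *Napsa* was detected in 84.6% of *Vcan* and 83.3% of *Ace* monocyte-like cells, 63.6% of macrophage-like cells and 14.3% of granulocyte-like cells. *Cytip*, an adaptor that regulates leukocyte adhesion, was in 35.7% of granulocyte-like cells and in 86.1% or more of each other sub-cluster. Conversely, label markers detected together were not confined to cluster 23. Of 450 kept cells with a UMI each of *H2-Ab1*, *H2-Eb1* and *Napsa*, 172 (38.2%) were in cluster 23 and 201 (44.7%) in cluster 24. Cluster 24 was the largest of the 4 immune clusters, with 1575 cells. Cluster 23 had 298, and the 172 were 57.7% of them. These genes do not set dendritic cells apart, since *H2-Ab1* was in 97.7% and *H2-Eb1* in 95.5% of macrophage-like cells.

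The makeup of the cluster differed between libraries, the 2 controls included. Dendritic-like sub-clusters held 54.3% (41.9–66.3) of cells in control 1, 31.0% (23.5–39.3) in control 2 and 65.1% (54.1–75.1) in *Angpt1*ΔNC. The controls' intervals did not overlap, while those of control 1 and *Angpt1*ΔNC did. The monocyte-like share was 25.7%, 37.3% and 19.8%, the macrophage-like share 12.9%, 19.0% and 9.30%, and the granulocyte-like share 7.14%, 12.7% and 5.81%, each highest in control 2. cDC2-like cells made up 25.7%, 18.3% and 29.1%. cDC1-like cells made up 22.9% (16 of 70) in control 1, 7.75% (11 of 142) in control 2 and 8.14% (7 of 86) in *Angpt1*ΔNC, so that here control 1 stood apart.

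Mature dendritic-like cells were the 1 sub-cluster of the 7 in which the interval of the *Angpt1*ΔNC share overlapped neither control interval. They were 4 of 70 cells in control 1 (5.71%, 1.58–14.0), 7 of 142 in control 2 (4.93%, 2.00–9.89) and 24 of 86 in *Angpt1*ΔNC (27.9%, 18.8–38.6). No test over samples was made. *Ccl17*, one of the genes that define them, also passed the genotype test below, so the cells were clustered again without the 20 genes that passed it, which gave 4, 6 and 24 cells. With genes centred within each library the counts were 6, 0 and 23, and 26 cells of control 2 formed a sub-cluster with no name. At resolution 0.3 they were not separated from the cDC2-like cells.

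**Figure D3:**
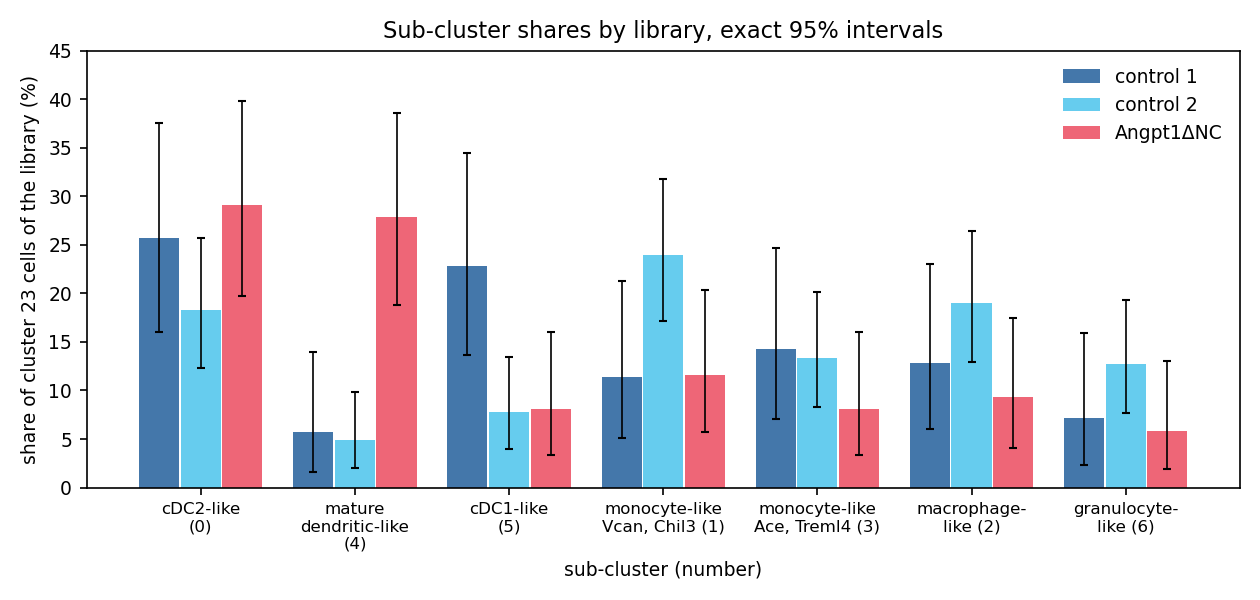
Share of each library's cluster 23 cells (vertical axis, percent) in each of the 7 sub-clusters (horizontal axis), with exact 95% binomial intervals as error bars and 1 bar per library. The *Angpt1*ΔNC bar of the mature dendritic-like cells, at 27.9%, stands above the control bars of 5.71% and 4.93%.

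*Ccl22*, a chemokine of mature dendritic cells, was detected in 15.7% (8.11–26.4), 7.75% (3.93–13.4) and 29.1% (19.8–39.9) of cells of control 1, control 2 and *Angpt1*ΔNC, and in at most 0.439% of epithelial cells. *Ccl17* was in 12.9%, 9.15% and 31.4%, against at most 2.96% in epithelium. *Xcr1* was in 17.1%, 5.63% and 10.5%, *Cd209a* in 25.7%, 14.8% and 16.3%, and *Flt3* in 21.4%, 9.86% and 19.8%. Within cDC2-like cells *Cd209a* was in 83.3%, 65.4% and 32.0%, lowest in *Angpt1*ΔNC, whose share of these cells was the highest. *Fscn1*, the actin-bundling protein of mature dendritic cells, was in 1.43%, 0.704% and 3.49%, below its 33.6% to 38.6% in epithelium. It had 1, 41 and 5 UMIs, and all 41 of control 2 came from 1 mature dendritic-like cell. Outside that cell it cannot be told from background. *Clec9a*, a cDC1 receptor for dead cells, was in 20.6% of cDC1-like cells and in no cell of the other sub-clusters. *Siglech*, a lectin of plasmacytoid dendritic cells, was in 2.01% of all cells of the cluster at 0.0127, 0.200 and 0.0290 UMIs per 10,000, under its mean of 0.254 in cluster 24.

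Lists of markers were used to compare the cluster with known cell types. A cell was counted for a list with a UMI in at least 2 of its genes. Monocyte genes were found in 35.7% of control 1, 59.2% of control 2 and 37.2% of *Angpt1*ΔNC cells, and in at most 0.607% of epithelial cells. When each cell was thinned to 2000 UMIs, which left out 8, 18 and 6 shallower cells, the shares were 25.8%, 50% and 25.0%, with the same order of control 2 above the rest. Dendritic core genes were found in 61.4%, 46.5% and 61.6%, and in 17.7%, 16.9% and 25.0% after thinning. Macrophage genes were found in more cells than either list, in 91.4%, 87.3% and 88.4%, and in at most 8.80% of epithelial cells. After thinning their shares were 79.0%, 85.5% and 71.25%. The macrophage-like sub-cluster held 14.8% of the cells, so most cells counted for the macrophage list lay outside it. Genes of mature dendritic cells were found in 85.7%, 81.0% and 87.2%, but also in 42.9% to 54.4% of epithelial cells. Genes of B cells, T or NK cells and endothelial cells were found in at most 2.11% of cells in any library. Epithelial markers were found in 5.71%, 8.45% and 8.14% and stromal markers in 28.6%, 22.5% and 15.1%, the latter falling to at most 4.03% after thinning.

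The genes with the highest level over all other kept cells, ranked by the lowest of the 3 libraries, were *Cytip*, *Il1r2*, *Csf2rb*, *Napsa* and *Il1b*. These are descriptions, since the clustering used expression. *Cytip* averaged 15.9, 13.9 and 13.2 UMIs per 10,000 over cells of control 1, control 2 and *Angpt1*ΔNC, against a mean of 0.192 in the rest. *Il1r2*, the decoy receptor of interleukin-1, averaged 6.14, 5.85 and 6.78 against 0.0628. It was highest in granulocyte-like cells, at 24.4, and in mature dendritic-like cells, at 17.6. *Csf2rb*, the shared beta chain of the receptors of GM-CSF, IL-3 and IL-5, averaged 6.70, 8.11 and 6.88 against 0.0929. *Il1b*, the inflammatory cytokine interleukin-1 beta, averaged 72.9, 64.9 and 64.6 against 2.33, and every sub-cluster carried it in at least 78.8% of cells. For *Napsa* the libraries were further apart, at 5.20, 4.21 and 7.94 against 0.0530. *Traf1*, *Mcemp1*, *Alox5ap*, *Cd52*, *Clec4e*, *Plbd1*, *H2-Ab1*, *Srgn*, *H2-Aa* and *Il7r* followed.

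Against clusters 24 and 25, the monocyte or macrophage clusters, cluster 23 had more *Plac8*, *Ifitm1*, *Il1r2*, *F10* (coagulation factor X) and *Mcemp1*. *Plac8*, an abundant gene of monocytes and of plasmacytoid cells, averaged 3.97, 8.55 and 5.44 against 0.0369, highest in control 2. *S100a4* and *S100a6*, small calcium-binding proteins, were also higher, *S100a4* at 4.53, 9.70 and 10.8 against 0.520, and so was the gut-homing integrin subunit *Itgb7* at 1.22, 1.48 and 1.77 against 0.0566. *Timd4*, a receptor for phosphatidylserine, averaged 2.39, 1.34 and 1.84 against 0.0620. Lower were the chemokines *Pf4*, *Ccl12*, *Ccl7*, *Cxcl1*, *Ccl3* and *Ccl2*, the Fc receptor-like *Fcrls*, *Ch25h*, the TAM receptor ligand *Gas6* and *C1qb*. *Pf4* averaged 0.339, 0.279 and 0.271 against 24.7, and *C1qb* 2.72, 2.00 and 3.42 against 44.0.

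By function, all 9 measured genes of lysosomal antigen processing and 9 of 11 MHC class II genes were detected in at least 10% of cells of every library. *Cd74*, the invariant chain that escorts class II molecules, averaged 296, 185 and 264 UMIs per 10,000, *H2-Aa* 93.3, 60.9 and 92.4 and *H2-Ab1* 89.1, 63.6 and 97.0, each lowest in control 2. *Cst3*, the cysteine protease inhibitor cystatin C, averaged 151, 67.0 and 136, and was highest in cDC1-like cells at 291. Of costimulatory genes 8 of 11 were detected at that level, led by *Cd83* (16.2, 8.73 and 12.1) and *Cd86* (6.72, 5.33 and 6.62), a ligand of CD28. Of C-type lectins 12 of 15, of cytokine receptors 11 of 14 and of transcription factors 15 of 22 were detected, against 5 of 23 pathogen sensors and 5 of 15 cytokines. The angiopoietin pathway had 0 of 6 genes detected at that level: *Angpt1* itself had 1, 1 and 0 UMIs in the 3 libraries. In this pathway angiopoietins act on the endothelial receptor TIE2.

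To ask which transcripts differed between genotypes, UMIs were summed over the cells of cluster 23 in each library (464652, 950773 and 691475 UMIs) and tested with edgeR's quasi-likelihood test over 5879 genes. Of these, 20 (0.34%) passed an adjusted p of 0.05, 13 higher (0.221%) and 7 lower (0.119%) in *Angpt1*ΔNC. In the bulk of a cluster, fewer cells of a type and less RNA per cell cannot be told apart, and the shifts in makeup above stand beside every value. The 13 higher were *Xist*, the hemoglobin genes *Hbb-bs*, *Hbb-bt*, *Hba-a1* and *Hba-a2*, *Rpl29*, *Ifi203*, *Stap1*, *Smchd1*, *Retnla*, *H2-Eb1*, *Rps18* and *Ccl17*. The lower ones described here were *Gm10260*, *Gm11361*, *Ifi202b*, *Ankrd33b*, *Gm10320* and *G0s2*.

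For 6 of the 20 a single cell held at least 50% of all UMIs. *Hbb-bs* had 9, 6 and 1531 UMIs in control 1, control 2 and *Angpt1*ΔNC, and 1513 of the last came from 1 cell. The same held for *Hba-a1*, *Hba-a2* and *Hbb-bt*, with 189 of 190, 155 of 156 and 60 of 61 *Angpt1*ΔNC UMIs in 1 cell. *Retnla*, a secreted protein of alternatively activated macrophages, had 0, 47 and 372 UMIs, in 0, 1 and 2 cells. Of the 372, 306 came from 1 cell, so without the highest cells its counts rest on 1 *Angpt1*ΔNC cell. *G0s2*, an inhibitor of lipolysis, was not among these 6. It had 64, 101 and 10 UMIs in 3, 15 and 2 cells, and averaged 38.4 per 10,000 in granulocyte-like cells against 0.0191 elsewhere. When each gene was tested without its highest cell of each library, 8 genes passed, all among the 20: *Xist*, *Gm10260*, *Gm11361*, *Rpl29*, *Ifi202b*, *Stap1*, *Retnla* and *Ccl17*. In dendritic-like cells alone 102 of 4115 genes passed (2.48%), among them all 18 of the 20 genes that could be tested there.

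**Figure D4:**
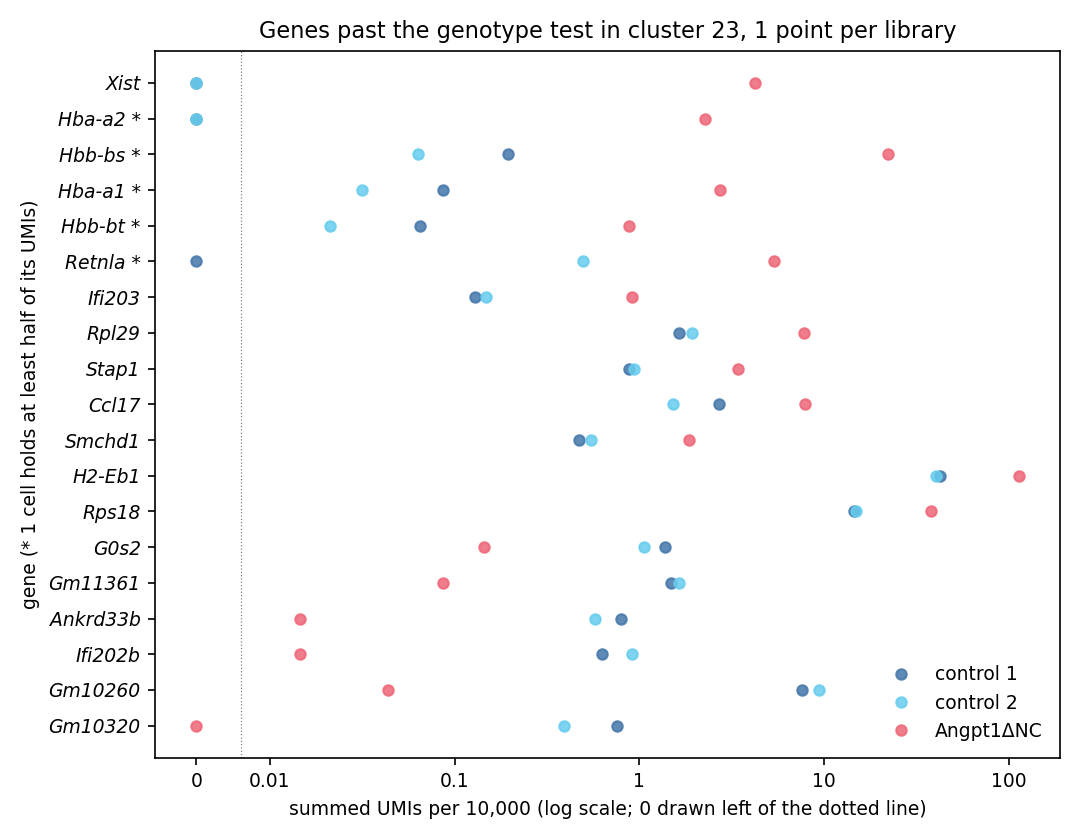
Summed UMIs per 10,000 (horizontal axis, log scale, with 0 drawn left of the dotted line) in cluster 23 of each library (colour) for the genes described here that passed the genotype test (rows, ordered by log2 difference). Asterisks mark genes with at least 50% of their UMIs in 1 cell; in every row the *Angpt1*ΔNC point lies outside the pair of control points.

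*H2-Eb1* was the 1 label marker that passed. Its summed level was 42.5, 40.3 and 113 UMIs per 10,000 in control 1, control 2 and *Angpt1*ΔNC, from 1973, 3834 and 7822 UMIs in 49, 96 and 69 cells. The controls lay close together and the *Angpt1*ΔNC library above them, by 1.63 on the log2 scale (SE 0.27, adjusted p = 0.0285, edgeR). It also passed in DESeq2 (adjusted p = 0.00326). Its log2 difference was 1.47 in dendritic-like cells alone and 1.97 in cells with a Y-linked transcript (38, 90 and 23 cells). Both are subsets of the same pools, so they add no separate support. The difference kept its size but did not pass with RLE size factors in place of TMM (log2 1.61, adjusted p = 0.109) and without the highest cells (log2 1.67, adjusted p = 0.211). In cells outside the dendritic-like groups it was 0.53 (adjusted p = 0.795).

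The other classical class II chains and the invariant chain did not pass. *H2-Ab1* was at 110, 85.4 and 106 UMIs per 10,000 (log2 0.29, SE 0.30, adjusted p = 0.911), *H2-Aa* at 112, 81.0 and 100.4 (log2 0.22, SE 0.32, adjusted p = 0.944) and *Cd74* at 365, 240 and 290 (log2 0.10, SE 0.34, adjusted p = 0.977), with *Angpt1*ΔNC between the controls in each. The ratio of *H2-Eb1* to *H2-Ab1* UMIs was 0.386, 0.472 and 1.07. The ratio was also higher in *Angpt1*ΔNC in the other immune clusters. It was 0.499, 0.553 and 1.07 in cluster 24, 0.495, 0.523 and 1.40 in cluster 25, and 0.414, 0.461 and 0.782 in cluster 22, while the genotype difference of *H2-Eb1* in cluster 23 differed from that in clusters 24 and 25 by 0.44 on the log2 scale (adjusted p = 1, edgeR). Within cluster 23, *H2-Eb1* was higher in *Angpt1*ΔNC in each of the 4 sub-clusters rich in class II. Its mean was 54.3, 69.4 and 154 UMIs per 10,000 in cDC2-like cells, 71.9, 62.0 and 143 in mature dendritic-like, 40.9, 55.1 and 97.8 in cDC1-like, and 41.1, 50.6 and 99.4 in macrophage-like cells. *H2-Ab1* in cDC2-like cells was 153, 150 and 156. In cells outside the dendritic-like groups, where *H2-Eb1* differed by 0.53, the log2 differences of *H2-Ab1*, *H2-Aa* and *Cd74* were -0.97, -0.79 and -1.02.

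**Figure D5:**
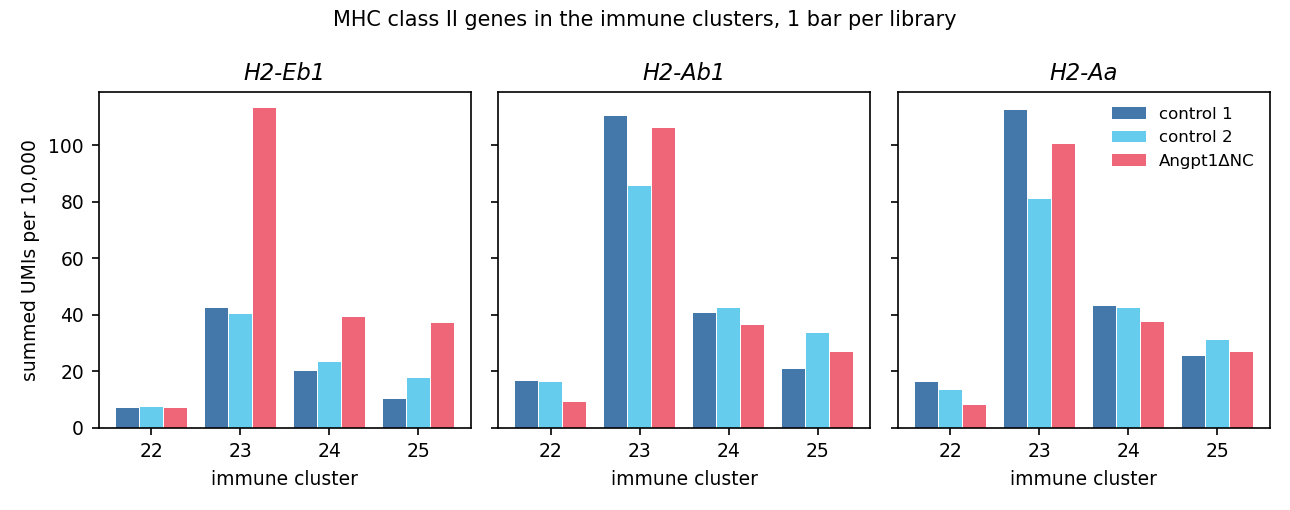
Summed UMIs per 10,000 (vertical axis, linear) of *H2-Eb1*, *H2-Ab1* and *H2-Aa* (panels) in immune clusters 22 to 25 (horizontal axis), 1 bar per library with no error bar. In cluster 23 *H2-Eb1* stands at 113 in *Angpt1*ΔNC against 42.5 and 40.3, while *H2-Ab1* and *H2-Aa* lie between the control values.

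The promoters of both chains are shown because the class II genes are known to share control elements, among them the Y box, a CCAAT-type element bound by NF-Y. *H2-Eb1* lies on chromosome 17 at 34305867 to 34316674 (+ strand, GRCm38) and *H2-Aa* near it at 34282744 to 34287823 (- strand). The 250 bases before each gene's start, from RefSeq on GRCm38.p6, are given 5′ to 3′ on the gene's strand, at chr17:34305617-34305866 for *H2-Eb1* and chr17:34287824-34288073 for *H2-Aa*. Capitals mark the letters CTGATTGG, which were searched on both strands and began 62 bases before the start of *H2-Eb1* and 51 before that of *H2-Aa*.
H2-Eb1: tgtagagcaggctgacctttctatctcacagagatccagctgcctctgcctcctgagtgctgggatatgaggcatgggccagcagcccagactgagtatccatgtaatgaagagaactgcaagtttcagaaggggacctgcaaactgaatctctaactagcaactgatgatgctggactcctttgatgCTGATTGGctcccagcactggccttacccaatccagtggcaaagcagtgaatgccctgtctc
H2-Aa: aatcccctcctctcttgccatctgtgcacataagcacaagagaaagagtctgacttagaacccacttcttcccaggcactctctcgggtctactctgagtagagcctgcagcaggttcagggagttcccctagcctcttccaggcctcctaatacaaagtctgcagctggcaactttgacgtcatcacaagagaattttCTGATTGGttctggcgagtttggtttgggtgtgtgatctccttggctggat
The same letters were in 4 of the 8 class II list genes present in the table, *H2-Aa*, *H2-Eb1*, *H2-Eb2* and *H2-Oa*, and in 1258 of all 32851 promoter windows of that length (3.83%). These are reference sequences, from which the mixed-strain mice used here may differ. Whether the letters bear on the level of either gene was not tested.

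*Ccl17*, the chemokine that draws CCR4+ T cells, had a summed level of 2.69, 1.53 and 7.88 UMIs per 10,000, from 9, 13 and 27 cells, and was higher in *Angpt1*ΔNC by 2.08 on the log2 scale (SE 0.37, adjusted p = 0.0452, edgeR). Within mature dendritic-like cells, whose number differed as given above, its mean was 0.649, 9.52 and 19.5, from 4, 7 and 24 cells, so that the controls differed widely. Its adjusted p with RLE size factors was 0.179. Of the 14 tested genes of the mature dendritic list, *Ccl17* was the 1 that passed, 12 had a log2 difference above 0 and their median was 0.47, against a median of -0.01 over all 5879 genes. *Ccl22* was at 0.925, 0.442 and 1.92 (log2 1.72, SE 0.43, adjusted p = 0.182), *Il4i1* at 0.646, 0.947 and 2.08 (log2 1.56, SE 0.32, adjusted p = 0.0933) and *Ccr7* at 6.18, 3.44 and 10.6 (log2 1.31, SE 0.38, adjusted p = 0.264). In dendritic-like cells alone *Ccl22* passed (log2 1.22, adjusted p = 0.0469, edgeR) and *Ccr7* did not (log2 0.85, adjusted p = 0.168). Those cells still included the mature ones, whose number differed. In cells with a Y-linked transcript the log2 difference was 2.50 for *Ccl17*, 2.22 for *Ccl22*, 1.13 for *Il4i1* and 1.47 for *Ccr7*. Within mature dendritic-like cells *Ccl22* averaged 6.75, 3.37 and 4.54 UMIs per 10,000, with *Angpt1*ΔNC between the controls. It averaged 0.854, 0.862 and 0.862 in cDC2-like cells and 0.696, 0.318 and 0.0908 in cDC1-like cells.

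In the MHC class II list 1 of 10 tested genes passed, against 0.34% of all genes. All 10 had a log2 difference above 0, against 2907 of all 5879 genes, and their median was 0.49. Without control 2, *Cd74* and *H2-Aa* were at -0.23 and -0.06. In the cDC1 list none of 7 passed and the median was -0.53, in the cDC2 list none of 7 and -0.20, in the monocyte list none of 8 and -0.24, and in the macrophage list none of 13 and 0.12. *Mgl2* was at 4.39, 3.2 and 7.72 UMIs per 10,000 (log2 1.20, SE 0.33, adjusted p = 0.229, edgeR) and *Cd209a*, the other leading cDC2 gene, at 2.50, 1.08 and 0.636 (log2 -1.30, SE 0.52, adjusted p = 0.565). *Cd209a* passed in dendritic-like cells alone (log2 -1.63, adjusted p = 0.00541). In cells with a Y-linked transcript the log2 difference of *Cd209a* was 0.69, in the opposite direction, and did not pass. That of *Mgl2* was 1.28 there. *Napsa* was at 5.21, 4.89 and 8.14 (log2 0.87, SE 0.29, adjusted p = 0.424). None of the interferon-stimulated (9 tested), cytokine (10), cytokine receptor (14), pathogen sensor (12) or transcription factor (21) genes passed. The angiopoietin pathway had no gene with enough counts to test.

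Several of the 20 genes have near-identical copies, among which reads could be divided, and are uncertain. *Gm10260* had 352, 890 and 3 UMIs (log2 -7.37, SE 0.53) and *Gm11361* 69, 155 and 6 (log2 -3.96, SE 0.47), while *Rps18*, a ribosomal protein gene, had 678, 1417 and 2611 (log2 1.54, SE 0.27). The transcripts of *Gm10260* and *Gm11361* were 99.1% and 99.3% identical to that of *Rps18* over 545 and 540 aligned bases. The sum of the 3 genes was 23.7, 25.9 and 37.9 UMIs per 10,000, a difference of 0.61 on the log2 scale. The same division was seen in cluster 24, where *Gm10260* stood at 3.76, 5.39 and 0.0305 UMIs per 10,000. *Gm10320* (35, 37 and 0 UMIs, at least 11.7-fold lower with a floor of 3 UMIs for *Angpt1*ΔNC) was 98.7% identical to *Sec61b*. *Rpl29* (76, 183 and 539 UMIs, log2 2.31, SE 0.29) had 34 other genes at 95% identity or more. *Hba-a1* and *Hba-a2* were 99.8% identical to each other.

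For *Ifi202b*, *Ankrd33b*, *Stap1* and *Smchd1* no copy at 95% identity or more was found. *Ifi202b*, an interferon-inducible HIN-200 gene, had 29, 87 and 1 UMIs (log2 -5.41, SE 0.70, adjusted p = 0.00524, edgeR), while its neighbor *Ifi203*, which was 96.1% identical to *Mndal* over 762 bases and therefore uncertain, had 6, 14 and 63 (log2 2.89, SE 0.39, adjusted p = 0.00741). *Ankrd33b*, an ankyrin repeat gene, had 37, 55 and 1 UMIs in 21, 34 and 1 cells (log2 -5.22, SE 0.76, adjusted p = 0.0121). *Stap1*, a signaling adaptor of hematopoietic cells, was at 0.882, 0.936 and 3.41 UMIs per 10,000 in 23, 41 and 60 cells (log2 2.09, SE 0.30, adjusted p = 0.0121). *Smchd1*, a chromatin protein that maintains silencing of the inactive X, was at 0.473, 0.547 and 1.85 (log2 2.04, SE 0.32, adjusted p = 0.0232) in 16, 38 and 47 cells. It also passed in cells with a Y-linked transcript (adjusted p = 0.00434), but not in DESeq2 (0.323), with RLE size factors (0.0844) or without its highest cells (0.0669). In each of *Stap1*, *Smchd1*, *Ankrd33b* and *Ifi202b* the 2 controls lay closer to each other than to *Angpt1*ΔNC. Passing the test favors such a pattern, so it adds no support. *Xist* was at least 201-fold higher in *Angpt1*ΔNC, with a floor of 3 UMIs over both controls.

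The last comparison asked whether the genotype difference of cluster 23 was that of the other myeloid cells, with UMIs summed for clusters 23, 24 and 25 in each library and the library as a block. Its p-values measure how the cluster sums vary across libraries, the *Angpt1*ΔNC library included. Sums from the same pool thus served as replicates, although they are not independent. Of 7216 genes tested, 20 (0.277%) passed, 10 (0.139%) with a more positive and 10 (0.139%) with a more negative difference in cluster 23. *Mgl2* stood at 4.39, 3.2 and 7.72 UMIs per 10,000 in cluster 23 but at 2.64, 1.91 and 1.60 in cluster 24, which gave a difference of 1.75 (SE 0.37, adjusted p = 0.0154, edgeR). *H2-DMb2*, a chain of the class II peptide exchanger, was at 1.33, 1.15 and 1.76 in cluster 23, at 0.294, 0.350 and 0.0373 in cluster 24 and at 0, 0.127 and 0.218 in cluster 25 (difference 3.45, SE 0.57, adjusted p = 0.000583). *Smchd1* was at 0.320, 0.339 and 0.339 in cluster 24, so that its rise in *Angpt1*ΔNC was larger in cluster 23 by 1.97 (SE 0.44, adjusted p = 0.0261). Against cluster 25 alone *Mgl2* (adjusted p = 0.772), *H2-DMb2* and *Smchd1* (1 each) did not pass, and in DESeq2 *Mgl2* was the 1 gene that did (adjusted p = 0.0214). *Fn1* and *Thbs1*, leading genes of the *Vcan* monocyte-like cells, had a more negative difference in cluster 23, by -3.62 and -2.17, with *Thbs1* at 4.78, 14.2 and 2.65 UMIs per 10,000, highest in control 2. *Hbb-bs*, *Ankrd33b* and *Smchd1* were the 3 genes that passed in both tests. For *Stap1* (difference 1.21, adjusted p = 0.356), *Ccl17* (0.24, adjusted p = 1), *Rpl29* (0.25, adjusted p = 1) and *Ifi202b* (-1.78, adjusted p = 1) no difference between clusters was detected.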

How the data were processed

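Libraries were made with 10x Genomics chemistry from tissue dissociated with collagenase and trypsin. The deposited matrices hold UMI counts per gene and cell (31053 genes, mm10); their header names Cell Ranger 3.0.2, while the submitters' notes name Cell Ranger 2.1.1 and Seurat 3.1.3. The authors filtered cells and removed doublets before depositing the cluster labels, so no doublet caller was run. The gene columns beside those labels hold integrated natural log values made by the authors, and were not used. Barcodes were matched to the count matrices by library.

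A gene's level is its UMIs per 10,000 of each cell, averaged over cells, and folds were taken with 0.1 added. Sub-clusters used 1000 variable genes, 15 principal components and Leiden clustering at resolution 0.5 (leidenalg 0.10.2). A sub-cluster was named from the marker list with most genes among its 10 leading genes (2 to 4 genes here), if 3 genes of the list were each in at least 10% of its cells. Summed counts were tested with edgeR 4.0.16 (glmQLFit and glmQLFTest, TMM, filterByExpr, Benjamini-Hochberg over all genes tested), which left 1 residual degree of freedom for the genotype test. SEs were derived from the fold change and the F statistic. DESeq2 1.42.0 was an alternative. The tests were also run on simulated counts with the same spread for every gene and library. Such counts hold no shift in makeup and no outlying cells. They cannot show how a lone *Angpt1*ΔNC pool varies. The cells and lists were chosen with earlier results of these data known, and the settings added later are named as such. Of 302 list genes, 2 were not analysed here. Genes named for cluster 23 were the 15 highest over all other cells, the 15 highest and 10 lowest over clusters 24 and 25, up to 12 per direction past the genotype test, and up to 4 of each list with the highest level. *Ccl17* was named as a list member, and 1 gene past the genotype test is not reported here. Genes of the second test were named after their values were seen. Copies were searched with blastn among reference transcripts.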

Additional observations from a re-analysis of the deposited data

Results flagged for a closer look

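The genotype difference of cluster 23 differed from that of clusters 24 and 25 for 20 genes, by the test of the difference itself (edgeR, clusters and libraries as terms, adjusted p under 0.05). Values below are differences on the log2 scale, cluster 23 minus clusters 24 and 25. The more positive ones were *Igha*, an antibody heavy chain, at 10.22, *Slc15a2* at 4.73, *Hbb-bs* at 3.87, the heat shock gene *Hspa1a* at 3.62, *H2-DMb2* at 3.45, *Mtss1* at 2.64, *Edn1* (endothelin-1) at 2.51, *Ckb* at 2.14, *Smchd1* at 1.97 and *Mgl2* at 1.75. The more negative ones were *Ly6a* at -4.73, *Ankrd33b* at -4.40, *Hamp* (hepcidin) at -3.82, *Cd24a* at -3.72, *Fn1* at -3.62, *Serpinb1a* at -3.19, *Cyp4f18* at -2.97, the chemokine *Ccl4* at -2.35, *Thbs1* at -2.17 and *Rcbtb2* at -1.87.

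Several of these turned on few counts or on 1 library. *Igha* had 1, 10 and 9 UMIs in cluster 23 of control 1, control 2 and *Angpt1*ΔNC, and 380 UMIs in cluster 24 of control 2 against 0 in the other 2 libraries. *Ly6a* had 8, 116 and 5 UMIs in cluster 23, highest in control 2, and *Fn1* 17, 162 and 21. *Hspa1a* had 14, 9 and 74 UMIs in cluster 23 and 595, 294 and 177 in cluster 24. Hemoglobin transcripts were abundant in cluster 24, where *Hbb-bs* had 8451, 840 and 42954 UMIs. Without each sum's highest cell, 12 of the 20 genes passed. *Hspa1a*, *Ly6a*, *Cd24a*, *Ccl4*, *Hamp*, *Serpinb1a* and *Edn1* did not, and *Igha* could not be tested. What moved these genes was not tested.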

How the results depend on the processing

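Of the 20 genes past the genotype test, 11 passed in DESeq2 (9 higher, 2 lower) and 10 with RLE size factors, which were all the calls of each. Other settings gave 134 calls with no low-count filter, 38 with an equal number of cells per library, 97 in cells with a Y-linked transcript and 6 in cells with class II and without other markers, where 6, 13 and 8 cells were left. Settings chosen after seeing the data gave 102 calls in dendritic-like sub-clusters (2.48% of 4115 genes), 2 in the cells outside them and 8 without each gene's highest cells. The higher and lower calls were 41 and 56 in cells with a Y-linked transcript and 56 and 46 in dendritic-like ones. The 20 genes kept their direction in each setting that gave them a value. Dendritic-like cells and cells with a Y-linked transcript came from the same pools as the whole cluster. Calls were more frequent in these subsets than in the main test, so passing there adds no separate support. Against clusters 24 and 25, the 20 calls became 30 against cluster 24 alone, 6 against cluster 25 alone, 1 in DESeq2, 31 with no filter and 16 without the highest cells, of which 19, 3, 1, 20 and 12 were among the 20. The median log2 difference over all genes in the test against cluster 25 alone was 0.12. The dendritic-like share of 46.3% became 37.9% with genes centred within library (14.1% in control 2) and 46.6% without the called genes. The share of cells counted for the mature dendritic list was 3.86 percentage points higher in *Angpt1*ΔNC than in the control mean. It was 14.4 higher with 3 genes of the list required and 14.6 after thinning to 2000 UMIs, and from 1.5 to 6.22 when 1 control was left out. The ratio of cluster shares ranged from 0.909 to 1.65 without 1 control. *Cd74* and *H2-Aa* turned from 0.54 and 0.58 to -0.23 and -0.06 on the log2 scale when control 2 rather than control 1 was left out. No paired analysis was possible, since there was a single *Angpt1*ΔNC pool and the labels link no pool to another. Depth limits the rarer groups, since 4 to 7 control cells per library were mature dendritic-like.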

Other observations

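Granulocyte-like cells of cluster 23 carried *H2-Eb1* more often than other class II genes. *H2-Eb1* had a UMI in 20%, 77.8% and 40.0% of them in control 1, control 2 and *Angpt1*ΔNC (5, 18 and 5 cells), at a mean of 5.46, 10.9 and 2.55 UMIs per 10,000, while *H2-Ab1* was at 0 in all 28, *H2-Aa* was in 7.14% and *Cd74* in 21.4% (20%, 27.8% and 0% by library). In epithelium *H2-Eb1* was in at most 2.96% of cells.

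*Il1r2* was detected in 85.7% of granulocyte-like and 97.1% of mature dendritic-like cells, in 76.8% of cDC2-like, 64.7% of cDC1-like, 43.2% of macrophage-like and 38.5% of *Vcan* monocyte-like cells, and in 5.56% of *Ace* monocyte-like cells. *Cd207*, known from Langerhans cells and from cDC1, was in 47.1% of cDC1-like, 20% of mature dendritic-like and 11.6% of cDC2-like cells, at means of 25.9, 3.45 and 3.64 UMIs per 10,000. *Ccr7* was found beyond the mature group, in 65.2% of cDC2-like and 29.4% of cDC1-like cells, and among cDC1-like cells in 25.0%, 9.09% and 71.4% of control 1, control 2 and *Angpt1*ΔNC (16, 11 and 7 cells).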
